A study of Homo sapiens with 6 samples.

Results

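The S100, annexin and calbindin-family calcium-binding genes were followed in Jurkat, an established line grown from a human T-cell leukemia, in cells that overexpressed a splicing isoform of PDCD1, the gene of the inhibitory receptor PD-1. All symbols of the S100 family (19 genes) and the annexin family (12 genes) were examined, with CALB1 and CALB2 added, which gives 33 of the 59248 genes in the table. The S100 and annexin genes are complete families taken by symbol, but the families were picked with earlier results of these data known. CALB2 was chosen by its large difference between overexpression and vector cells, seen earlier in these libraries, and CALB1 was added as its paralog. The difference of CALB2 is therefore given as a description, without a test, and so is that of CALB1.

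RNA-seq libraries came from cells of the genotype labelled PDCD1 28 overexpression (3 libraries) and from cells with the vector (3 libraries), where 28 is the number of retained intron bases in the isoform. The growth protocol names both groups' cells Jurkat KO-1, and what was knocked out was not given in the sources used here. The labels do not say whether the libraries of a group came from separate cultures or clones. The p-values set the group difference against the variation among libraries of a group, and that variation may be technical. Totals ran from 61486369 to 72314037 estimated counts in overexpression and from 59911578 to 84220970 in vector. The overexpressed gene had 945, 1059 and 807 estimated counts in overexpression against 14, 18 and 15 in vector. All 10 T-cell markers examined were expressed. Of these, 2 rose (TRBC1 and ZAP70) and 6 fell, beside 22.6% and 23.4% of all genes tested, and CD3D and CD3E were not called. Among those that fell was CD7 (17.5 ± 1.01 CPM in overexpression and 74.4 ± 8.36 CPM in vector, SD, n = 3 each). The summed levels of the 10 markers were 2638 to 2681 CPM in overexpression and 2684 to 2910 CPM in vector. CPM is the estimated count scaled to the size of its library, as adjusted by the trimmed mean of M values. The first principal component separated the groups, and on the second, vector replicate 2 stood away from its group.

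S100 proteins are small calcium sensors with EF hands, the helix-loop-helix motif that also binds calcium in calmodulin and in the calbindins. Annexins bind acidic phospholipids of membranes when calcium rises, and several S100 dimers bridge a pair of annexin molecules on a membrane. Calretinin, the product of CALB2, and calbindin, the product of CALB1, are EF-hand calcium buffers best known from neurons. In leukocytes, S100A8, S100A9 and S100A12 are known as products of neutrophils and monocytes, and annexin A1 as an anti-inflammatory mediator.

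CALB2, at chromosome 16, 71358713 to 71390438 on the plus strand (GRCh38, GENCODE 29), was the member with the largest difference. It had 180, 222 and 200 estimated counts in overexpression, against 4, 4 and 0 in vector. The corresponding levels were 2.77, 2.98 and 3.13 CPM in overexpression, against 0.0690, 0.0496 and 0 CPM in vector. All overexpression libraries were high and close together, and the groups did not overlap. CALB2 was chosen by this difference and passed the expression filter, described below, only through the overexpression libraries. The lack of overlap was therefore fixed in advance, and nothing is read from it. The ratio of the mean levels was 74.9, with a fitted log2 fold change of 6.19 ± 0.55 (SE). The vector values lie under the floor, set at 12 estimated counts per library, which is 3 read pairs if each pair adds about 4 to a value. Set against that floor, the mean of overexpression was 16.7-fold, so the size of the difference is uncertain. Its paralog CALB1 had 110, 73 and 72 estimated counts in overexpression and 96, 96 and 155 in vector, with overlapping groups and a log2 fold change of -0.43 ± 0.32 (SE).

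**Figure D1:**
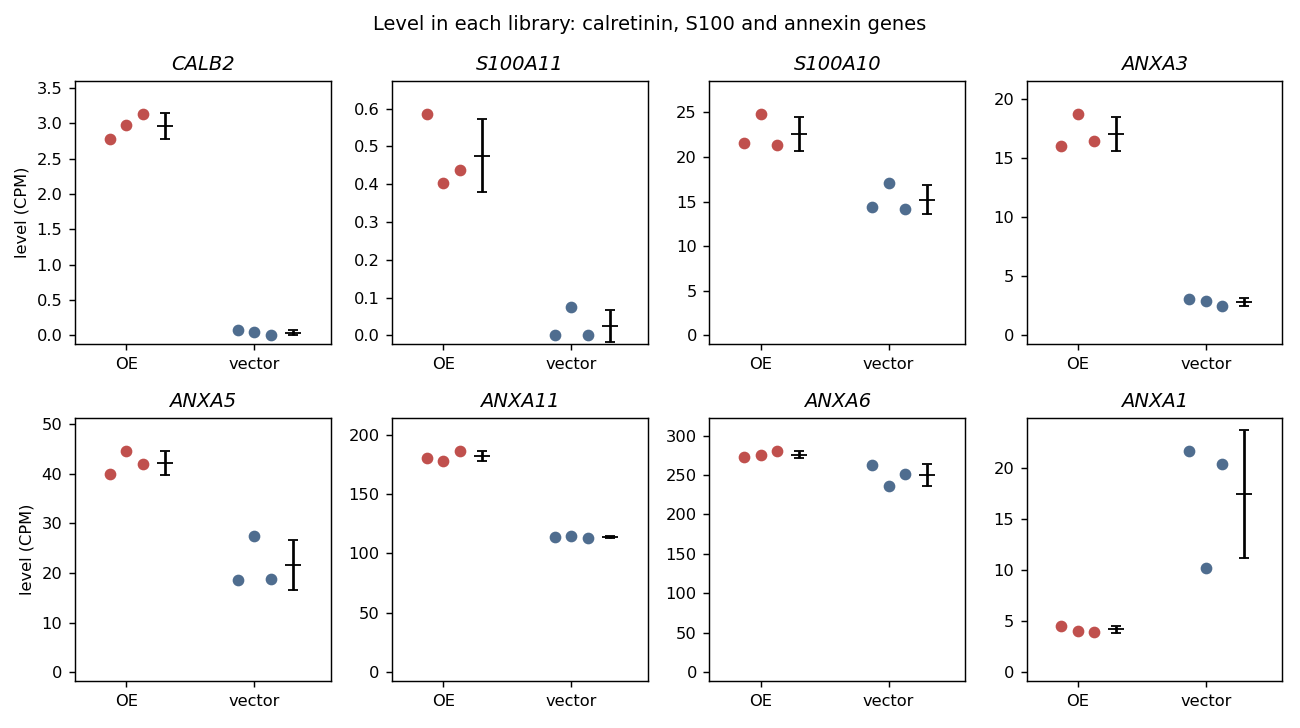
Level in CPM (vertical axis, linear, a separate scale for each gene) of 8 genes in each of 3 overexpression (OE) and 3 vector libraries; points are libraries, and the bar beside them is the mean ± SD. CALB2 lies at 2.77 to 3.13 CPM in overexpression and at 0 to 0.0690 CPM in vector, and vector replicate 2, the middle vector point, lies apart from the other vector libraries for ANXA5 and ANXA1.

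The promoters of ANXA3, ANXA1 and S100A11 are shown because these genes had the largest fold changes among S100 and annexin genes that passed the expression filter, described next. In G and C content, over 300 bases, ANXA1 (37.7%) lies apart from ANXA3 (64.7%) and S100A11 (65.3%). Each promoter is given as the 250 bases 5′ of the start site on the gene's strand, from RefSeq (GRCh38.p14), in lower case with matches to the motifs below in capitals. The windows are chr4:78551520-78551769 (plus strand) for ANXA3, chr9:73151615-73151864 (plus strand) for ANXA1 and chr1:152037005-152037254 (minus strand) for S100A11.
ANXA3: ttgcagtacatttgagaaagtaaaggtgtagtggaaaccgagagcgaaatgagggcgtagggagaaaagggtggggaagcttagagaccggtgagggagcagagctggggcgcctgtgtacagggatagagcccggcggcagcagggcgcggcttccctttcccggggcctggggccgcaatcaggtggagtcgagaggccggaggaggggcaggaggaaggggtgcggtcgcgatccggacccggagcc
ANXA1: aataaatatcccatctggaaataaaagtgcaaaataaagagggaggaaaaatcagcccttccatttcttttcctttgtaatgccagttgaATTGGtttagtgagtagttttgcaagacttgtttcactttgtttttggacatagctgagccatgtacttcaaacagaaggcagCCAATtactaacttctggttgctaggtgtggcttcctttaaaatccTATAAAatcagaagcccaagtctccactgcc
S100A11: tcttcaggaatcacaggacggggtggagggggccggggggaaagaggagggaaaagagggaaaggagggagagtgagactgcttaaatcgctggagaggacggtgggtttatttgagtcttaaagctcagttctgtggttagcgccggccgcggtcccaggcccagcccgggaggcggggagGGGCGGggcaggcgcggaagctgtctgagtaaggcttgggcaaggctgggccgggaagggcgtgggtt

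The motifs searched on both strands were the TATA box TATAAA, the CCAAT box CCAAT, the GC box GGGCGG, the AP-1 site TGANTCA and the cAMP response element TGACGTCA, in windows of 300 bases (250 before and 50 after the start). They occur in 11.5%, 34.6%, 45.0%, 7.71% and 1.85% of 35116 promoter windows of that length. The ANXA1 window holds a TATAAA that begins 31 bases before the start site, a pair of CCAAT matches, which lie on opposite strands, and no CG dinucleotide. The ANXA3 window holds 25 CG dinucleotides and none of these motifs, and that of S100A11 holds 22 with a single GC box. The median over all windows is 14. S100A10, ANXA5, ANXA11 and ANXA6, which rose, hold 32, 36, 30 and 25, by the highest count where a gene has several windows. By the same measure, S100 and annexin genes tested but not called hold from 4 (S100Z) to 44 (ANXA4). A match describes letters only and marks no bound site.

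Most S100 genes had values of 0 or near 0 in these libraries. Of the 19 genes, 7 passed the expression filter, which asked for about 10 estimated counts in at least 3 libraries. Listed at 0 in all libraries were S100A3, S100A6, S100A7, S100A8, S100A12 and S100G. A value of 0 in this table need not mean absence: CTPS2, a broadly expressed gene that overlaps S100G on the opposite strand, was also listed at 0 in every library. The floor of 12 estimated counts corresponds to 0.149 to 0.207 CPM in the various libraries. Further genes stayed under the floor everywhere: S100A9, which forms calprotectin with S100A8, had at most 8 estimated counts, and the genes S100A2, S100A14 and S100A16, known from epithelia, had at most 4, 3 and 5. S100P had 4, 7 and 9 estimated counts in overexpression and 8, 0 and 17 in vector. S100B, known as an astrocyte product, had 3, 0 and 0 estimated counts in overexpression against 12, 12 and 23 in vector, and did not pass the filter. S100B passed in some fits with a library left out, where its log2 fold changes ran from -3.22 to -7.01. It entered these fits through the vector libraries alone and so had to differ to be tested at all. These values are therefore a description, without a p. Over all 33 members, 17, 16 and 19 reached the floor in the overexpression libraries, and 17, 16 and 19 in the vector libraries. These totals include CALB1 in every library and CALB2 in the overexpression libraries alone.

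S100A10 was the S100 gene that rose among those expressed above the floor in both groups, and no S100 gene fell at an adjusted p of 0.05. S100A11 also passed the threshold, but it passed the filter only through the overexpression libraries and so had to differ to be tested at all. Its values are therefore a description, without a p. Together that is 2 of 7 S100 genes tested, beside 46.1% of all genes tested that were called in either direction, 22.6% higher and 23.4% lower in overexpression, and nothing is read from this count. The median log2 fold change of the 7 S100 genes was -0.20, beside 0.02 over all genes tested.

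S100A10 (chromosome 1, 151982915 to 151994390, minus strand) encodes p11, which binds annexin A2 and carries receptors and channels to the plasma membrane. It had 21.6, 24.8 and 21.4 CPM in overexpression, against 14.4, 17.1 and 14.2 CPM in vector. The lowest overexpression library lay above the highest vector library, with means of 22.6 ± 1.91 and 15.2 ± 1.62 CPM (SD, n = 3 each). The log2 fold change was 0.57 ± 0.11 (SE; edgeR adjusted p = 0.0033). This gene made up 83.3%, 88.0% and 85.7% of the summed S100 level in overexpression and 72.9%, 81.1% and 74.4% in vector. The sum over all S100 genes was 26.4 ± 1.64 CPM in overexpression and 19.9 ± 1.04 CPM in vector (SD, n = 3 each).

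S100A11 (chromosome 1, 152032506 to 152047907, minus strand), whose product is a known partner of annexin A1, lies next to S100A10 among the genes tested. It had 38, 30 and 28 estimated counts in overexpression, against 0, 6 and 0 in vector. Overexpression levels were 0.585, 0.403 and 0.438 CPM, low but above the floor, while every vector library was under it. The fitted log2 fold change was 4.02 ± 0.95 (SE), and 7.97 without vector replicate 2, which leaves vector at 0. Set against the floor, the overexpression mean was 2.67-fold, so the size of the difference is uncertain. The pseudogenes of S100A11 in the table had at most 7 estimated counts; how reads shared with such copies were assigned was not given in the sources used here.

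The other S100 genes tested did not pass the threshold. S100A4, a binding partner of non-muscle myosin, had 1.83, 1.45 and 1.63 CPM in overexpression and 1.95, 1.86 and 1.85 CPM in vector. Its groups just failed to overlap, at a log2 fold change of -0.20 ± 0.20 (SE; edgeR adjusted p = 0.43). S100A1, a regulator of calcium release channels in heart, had 0.400, 0.148 and 0.297 CPM in overexpression, against 0.466, 0.533 and 0.725 CPM in vector. Its libraries did not overlap either, at a log2 fold change of -1.03 ± 0.45 (SE; edgeR adjusted p = 0.097). S100A1 and S100A13 overlap on opposite strands and the strand setting of the counting was not given in the sources used here, so reads of these genes may be mixed. S100A13 had 0.724, 0.699 and 0.469 CPM in overexpression and 0.983, 0.756 and 0.621 CPM in vector. S100A13, S100A5 and S100Z had log2 fold changes of -0.31 ± 0.32, -0.04 ± 0.70 and -0.84 ± 0.44 (SE; edgeR adjusted p = 0.46, 0.97 and 0.15), with overlapping groups. Without vector replicate 2, S100Z fell, at a log2 fold change of -1.16 (edgeR adjusted p = 0.032), and the number of S100 genes called was then 4 in place of 2. That number includes S100A11 and S100B, which passed the filter through a single group, so nothing is read from it. Each of these genes lay below 2 CPM in every library.

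Annexins were expressed at higher levels, and 9 of 12 passed the filter. ANXA3, ANXA5, ANXA11 and ANXA6 rose and ANXA1 fell, 5 of 9 tested, beside the 46.1% of all genes called. The median log2 fold change of the 9 was 0.38, beside 0.02 over all genes tested. ANXA8, ANXA10 and ANXA13 did not pass: ANXA8, which shares sequence with ANXA8L1, reached 12 estimated counts in overexpression replicate 3, ANXA10 had at most 6, and ANXA13, an intestinal annexin, had 31 in vector replicate 3 and 0 in every other library. The summed annexin level was 626, 632 and 641 CPM in overexpression and 535, 479 and 520 CPM in vector.

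ANXA3 (chromosome 4, 78551519 to 78610451, plus strand) had the largest rise among annexins. It had 16.1, 18.7 and 16.4 CPM in overexpression, against 3.09, 2.91 and 2.48 CPM in vector. The groups were far apart, at 17.1 ± 1.44 and 2.83 ± 0.310 CPM (SD, n = 3 each). The ratio of means was 6.04 and the log2 fold change 2.59 ± 0.14 (SE; edgeR adjusted p = 6.9e-06). Of all genes tested, 1.81% had a log2 fold change at least as high, called or not. Its share of the summed annexin level was 2.56%, 2.96% and 2.56% in overexpression and 0.577%, 0.608% and 0.478% in vector.

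ANXA1 (chromosome 9, 73151757 to 73170393, plus strand), which encodes the glucocorticoid-induced ligand of formyl peptide receptors, was the annexin that fell. It had 4.51, 4.07 and 3.94 CPM in overexpression, against 21.7, 10.2 and 20.4 CPM in vector. Overexpression libraries were all low; vector replicate 2 lay between them and the other vector libraries, and the groups did not overlap. The log2 fold change was -2.06 ± 0.27 (SE; edgeR adjusted p = 5.0e-04), and -2.34 without vector replicate 2. Of all genes tested, 2.61% had a log2 fold change at least as low, called or not. The ratio of ANXA3 to ANXA1 per kb of transcript was 4.75, 6.13 and 5.56 in overexpression and 0.190, 0.381 and 0.163 in vector, so the order of these annexins was turned round between the groups.

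ANXA5, whose product binds phosphatidylserine and is used to stain dying cells, had 39.9, 44.6 and 42.1 CPM in overexpression, against 18.6, 27.5 and 18.7 CPM in vector. Vector replicate 2 was again the library nearest to the other group, without overlap. The log2 fold change was 0.96 ± 0.15 (SE; edgeR adjusted p = 0.0011). ANXA11, which tethers RNA granules to lysosomes, had 181, 178 and 186 CPM in overexpression, against 114, 115 and 113 CPM in vector. Its libraries agreed closely within each group, and the log2 fold change was 0.67 ± 0.04 (SE; edgeR adjusted p = 1.3e-05). ANXA6, the most abundant member, had 272, 275 and 281 CPM in overexpression, against 262, 236 and 252 CPM in vector. This small rise, at a log2 fold change of 0.14 ± 0.05 (SE; edgeR adjusted p = 0.046), missed the threshold in 7 of 14 alternative fits, with adjusted p-values between 0.012 and 0.13 over all of them. ANXA6 held 43.6% ± 0.148 of the summed annexin level in overexpression and 48.9% ± 0.401 in vector (SD, n = 3 each).

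The remaining annexins were not called. ANXA2, the partner of S100A10, had 32.9, 32.7 and 33.6 CPM in overexpression and 38.0, 24.3 and 37.0 CPM in vector. The vector libraries lay on either side of overexpression, at a log2 fold change of 0.00 ± 0.15 (SE; edgeR adjusted p = 0.998). Without vector replicate 2 the gene fell, at -0.19 (edgeR adjusted p = 0.018). The ratio of S100A10 to ANXA2 per kb was 0.915, 1.06 and 0.889 in overexpression and 0.528, 0.981 and 0.534 in vector, and vector replicate 2 overlapped with overexpression. ANXA7, the annexin first named synexin, had 68.7, 69.5 and 69.0 CPM in overexpression and 70.7, 56.5 and 68.3 CPM in vector, with overlapping groups. It had a log2 fold change of 0.08 ± 0.08, ANXA4 of 0.38 ± 0.16 and ANXA9 of 0.53 ± 0.29 (SE; edgeR adjusted p = 0.44, 0.085 and 0.16). The groups of ANXA4 did not overlap, with means of 6.32 ± 0.482 CPM in overexpression and 4.88 ± 0.622 CPM in vector (SD, n = 3 each). ANXA4 overlaps AAK1 on the opposite strand, a gene with 5536 to 8564 estimated counts per library. As the strand setting of the counting was not given, reads of AAK1 may be mixed into ANXA4. The ANXA2 pseudogenes in the table had at most 21 estimated counts.

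**Figure D2:**
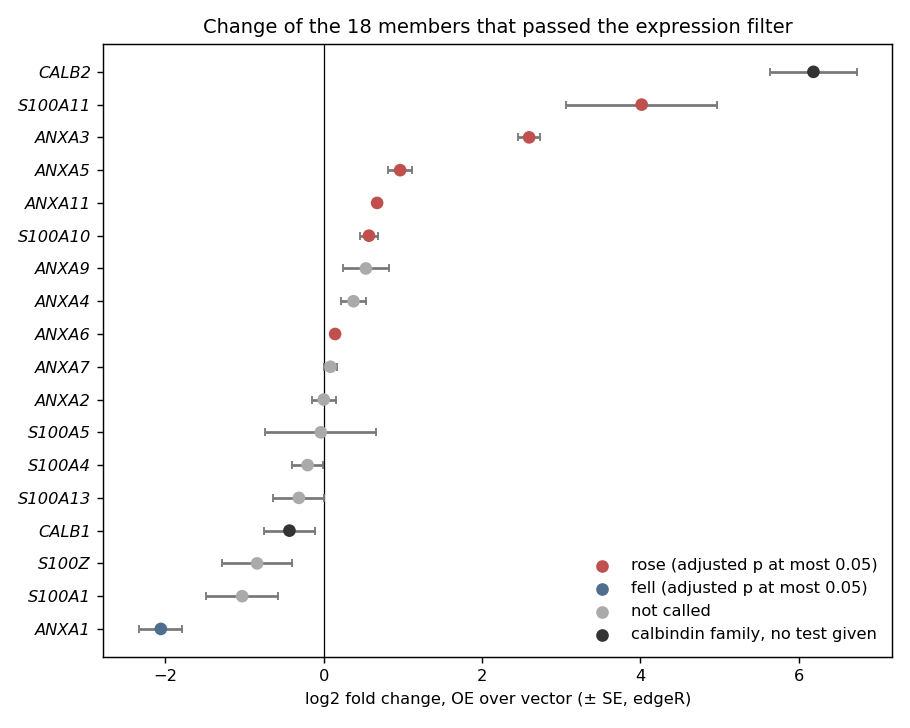
Fitted log2 fold change of overexpression over vector (horizontal axis, bars ± SE from edgeR) for the 18 members that passed the expression filter, in order of size. CALB2 at 6.19 and S100A11 at 4.02 carry the widest bars among members with a positive fold change, and ANXA1 at -2.06 is the member that fell.

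The libraries showed no overlap between the groups in 4 of 7 S100 genes tested (2 higher and 2 lower in overexpression) and in 6 of 9 annexins (5 higher and 1 lower). For S100A11, among the S100 genes, the filter fixed this. Over all genes tested this held for 58.7%, 30.1% higher and 28.6% lower.

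Per kb of transcript, which allows genes to be compared, ANXA6 stood first with 106 ± 1.63 CPM per kb in overexpression and 96.4 ± 5.19 in vector (SD, n = 3 each). The length is that of the longest protein-coding transcript, which is 6965 bases for ANXA11 and 2452 for ANXA7. Which transcripts were expressed was not examined, so the place of ANXA11 below depends on that choice. Before division by length it had 182 CPM in overexpression, against 69.1 for ANXA7. In overexpression ANXA7, ANXA11 and ANXA5 followed at 28.2 ± 0.161, 26.1 ± 0.597 and 24.0 ± 1.34 CPM per kb, and ANXA2 at 19.7 ± 0.264 and S100A10 at 18.8 ± 1.59 lay within the spread of each other. In vector ANXA7 at 26.6 ± 3.10 was followed by ANXA2 at 19.8 ± 4.57 and ANXA11 at 16.4 ± 0.143, which did not differ beyond their spread, and S100A10 at 12.7 ± 1.35 and ANXA5 at 12.3 ± 2.88 lay together. ANXA3 stood at rank 7 of 18 in overexpression with 10.3 ± 0.870 CPM per kb and at rank 10 in vector with 1.71 ± 0.187. ANXA1 stood at rank 12 in overexpression with 1.89 ± 0.135 CPM per kb and at rank 7 in vector with 7.88 ± 2.84. CALB2 stood at rank 10 in overexpression with 2.02 ± 0.122 CPM per kb, level with ANXA4 at 2.26 ± 0.172 and ANXA9 at 1.94 ± 0.665, and last in vector.

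**Figure D3:**
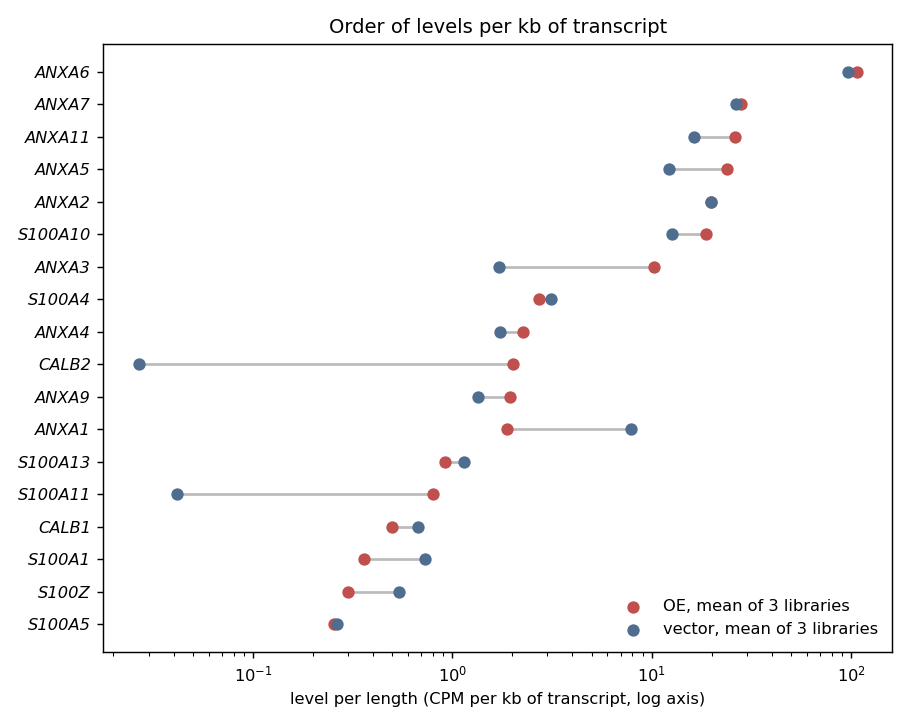
Mean level in CPM per kb of the longest protein-coding transcript (horizontal log axis) in overexpression (OE) and vector libraries, n = 3 each, for the 18 members tested, ordered by overexpression. CALB2 has the widest gap between the groups and is last in vector, and ANXA3 and ANXA1 differ in opposite directions.

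Promoter windows were found for 28 of the 33 members. CG counts were higher among members that passed the expression filter (median 22.5, n = 16 genes, 10 of them at or above 14) than among those that did not (median 5, n = 12, of which 1 was at or above 14). This is a description, without a test, in which the highest CG count was taken where a gene has several windows. Passing also went with family, as 9 of 12 annexins but 7 of 19 S100 genes passed. Within the S100 family, genes that passed held 4 to 32 CG and genes that did not held 1 to 31. The part of family in the difference was not tested. Exceptions stood on both sides: ANXA1, with no CG, was expressed, and S100A6, with 31, was listed at 0 in all libraries. A TATAAA was present in a window of 7 of the 12 genes that did not pass and of 6 of the 16 that did.

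**Figure D4:**
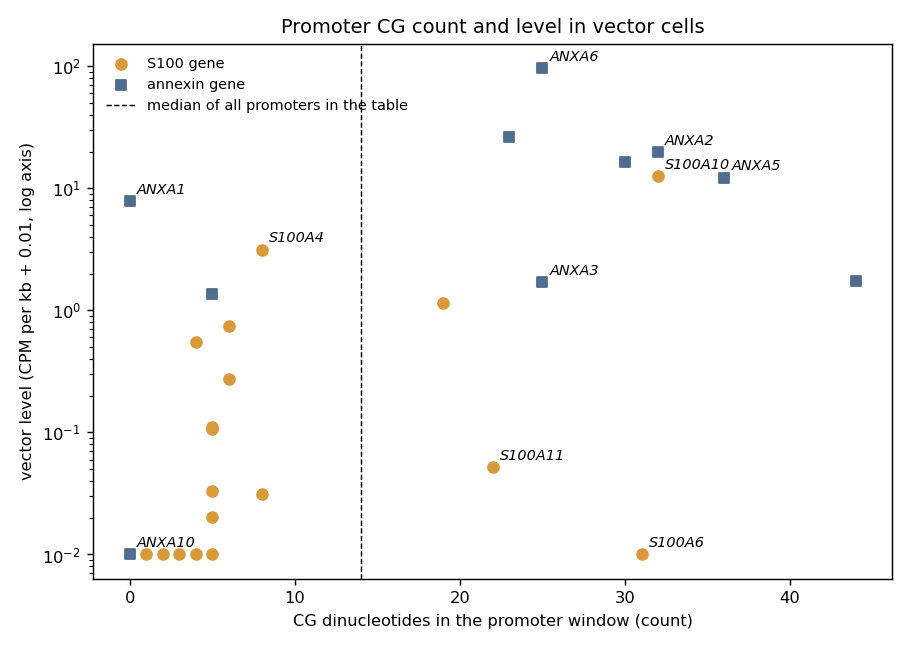
Number of CG dinucleotides in the promoter window (horizontal axis; the highest count where a gene has several windows) against the mean level in vector libraries (vertical log axis, CPM per kb + 0.01) for 28 S100 and annexin genes; the dashed line is the median of all promoters, 14. S100A6, with 31, is listed at 0 and S100A11, with 22, lies near it at 0.0417 CPM per kb, whereas ANXA1, with 0, lies at 7.88 CPM per kb.

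Genes that surround the members on their chromosomes were read from the same fit, as the 5 nearest tested genes on each side. Their counts stand beside 22.6% of all genes tested that rose and 23.4% that fell. Around CALB2, 2 of 10 rose and 1 fell, and the median of the 10 was 0.54 on the log2 scale. HYDIN, a gene of motile cilia, was among them at 3.15 ± 0.25 (SE; edgeR adjusted p = 3.9e-05). HYDIN was singled out after its value was seen. Around ANXA1, 6 of 10 fell and 0 rose, with a median of -0.61 and a lowest value of -1.05, less far than ANXA1 itself. The nearest tested genes can lie far from a member. ANXA1 spans 73151757 to 73170393, whereas ZFAND5 before it ends at 72365235 and RORB-AS1 after it starts at 74485551. Around ANXA3, 1 rose and 3 fell (median -0.26), around ANXA5 4 rose and 2 fell (0.34), around ANXA11 2 rose and 3 fell (-0.50), and around ANXA6 1 rose and 4 fell (-0.43). The part of the surrounding region in the changes of the members was not tested.

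**Figure D5:**
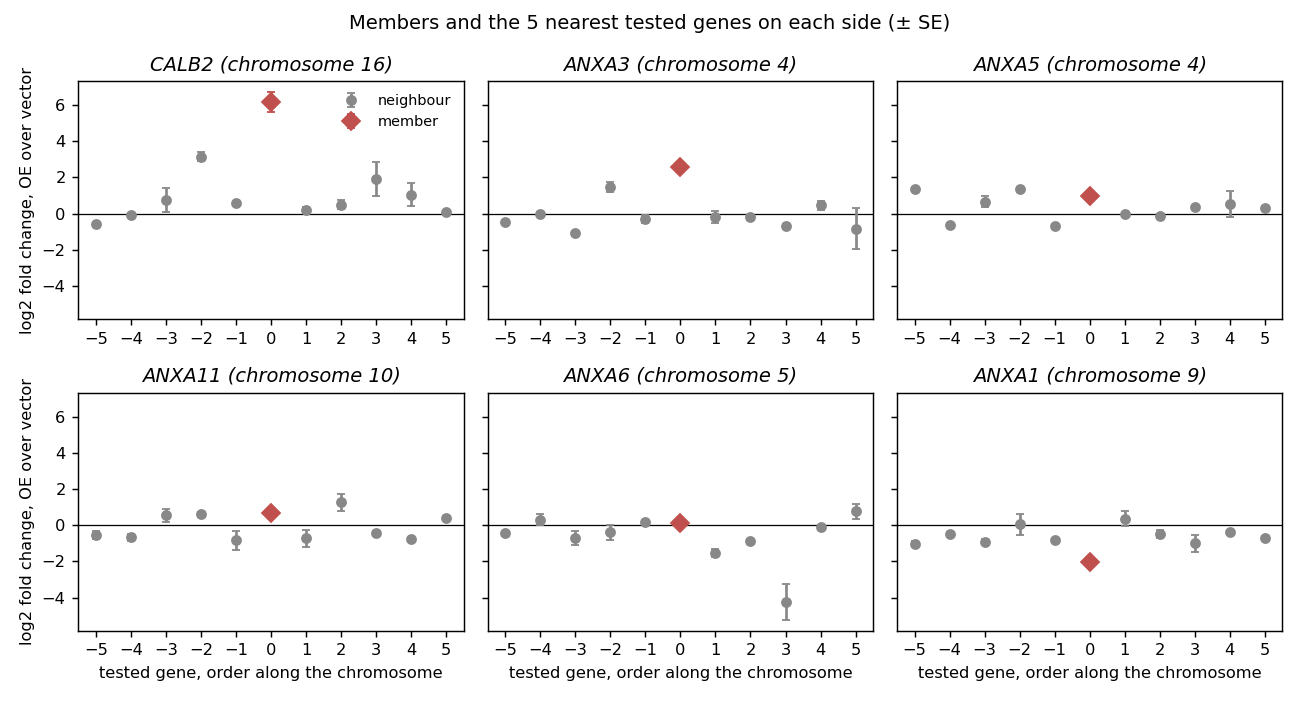
Log2 fold change of overexpression over vector (vertical axis, bars ± SE) of 6 members (diamonds at 0) and of the 5 nearest tested genes on each side, in order along the chromosome (horizontal axis). Neighbours of ANXA1 lie at or below 0 apart from 2, whereas CALB2 lies above all of its neighbours.

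Partners and receptors of S100 proteins and annexins were called in both directions. Of 32 listed genes 22 were tested, and 7 rose and 6 fell, beside 22.6% and 23.4% of all genes. Among the 6, PLA2G4A had 4, 0 and 0 estimated counts in overexpression and 37, 26 and 32 in vector. PLA2G4A passed the filter only through the vector libraries and so had to differ to be tested. Nothing is read from its call. Their median log2 fold change was 0.02, as over all genes. AHNAK, the giant scaffold protein that binds the S100A10 and annexin A2 complex, rose to 23.4 ± 1.52 CPM in overexpression, against 5.82 ± 1.62 CPM in vector (SD, n = 3 each). Its log2 fold change was 2.01 ± 0.20 (SE; edgeR adjusted p = 1.2e-04). TPM1, which encodes a tropomyosin, and DPYSL2 rose with log2 fold changes of 0.999 ± 0.11 and 0.80 ± 0.09 (SE). DYSF, which encodes the membrane repair protein dysferlin, rose at 2.65 ± 0.39 (SE; edgeR adjusted p = 9.1e-04) and was named after its value was seen. CACYBP, named for its binding of calcyclin, the product of S100A6, fell at -0.64 ± 0.05 (SE), in libraries where S100A6 was listed at 0. CD69, an early activation receptor that binds S100A8 with S100A9, fell at -1.57 ± 0.22, and BSG at -0.22 ± 0.04 (SE). FPR1, a receptor of annexin A1, was listed at 0 in all libraries, and AGER, the receptor RAGE of several S100 proteins, was not called (0.15 ± 0.18, SE; edgeR adjusted p = 0.53).

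Other EF-hand and related calcium-sensor genes were called in both directions: of 57 listed and 44 tested, 11 rose and 13 fell, beside 22.6% and 23.4% of all genes. The median over the 44 was a log2 fold change of 0.06. SRI, which encodes sorcin, NUCB2, a nucleobindin gene, and GCA, which encodes grancalcin, rose with log2 fold changes of 0.695 ± 0.07, 0.57 ± 0.06 and 2.06 ± 0.23 (SE). RCN1, a reticulocalbin gene of the secretory pathway, PPP3R1, which encodes the regulatory subunit of calcineurin, and NCS1, which encodes neuronal calcium sensor 1, fell with -1.12 ± 0.07, -1.05 ± 0.07 and -2.59 ± 0.25 (SE). Of 6 copine genes tested, which encode further calcium-dependent membrane binders, CPNE4 rose and CPNE1, CPNE7 and CPNE2 fell (median -0.25). Of 7 genes of the S100 fused type, which lie in the same epidermal gene complex, 3 were tested and none was called by edgeR; TCHH and FLG had log2 fold changes of -0.36 ± 0.33 and 0.64 ± 0.47 (SE).

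Several members are also known from epithelial and myeloid cells, so markers of such cells were read beside them. The marker counts stand beside 22.6% of all genes tested that rose and 23.4% that fell. Of 10 epithelial markers 3 were tested and 2 rose, ESRP1 and KRT8; the summed level was 12.7 to 14.6 CPM in overexpression and 2.94 to 4.08 CPM in vector, and most of it was ESRP1 (11.9 ± 1.01 and 3.06 ± 0.347 CPM, SD, n = 3 each). KRT18 had 4, 13 and 12 estimated counts in overexpression and 0 in each vector library, and CLDN4 had 19, 25 and 26 in overexpression and 0, 19 and 2 in vector (log2 fold change 1.87 ± 0.97, SE; edgeR adjusted p = 0.15). EPCAM, KRT5 and CDH16 were listed at 0 in every library, and CDH1, KRT19 and CLDN3 had at most 1, 5 and 16 estimated counts. Of 10 myeloid markers 5 were tested and 2 fell, AIF1 and CD14, with summed levels of 36.1 to 39.7 CPM in overexpression and 50.9 to 57.4 CPM in vector, mostly AIF1. ITGAM, CD68 and FCER1G were not called and went both ways, at log2 fold changes of 2.79 ± 1.07, 0.70 ± 0.51 and -2.14 ± 0.88 (SE; edgeR adjusted p = 0.064, 0.30 and 0.079). CSF1R, LYZ, MPO, SPI1 and TYROBP did not pass the filter. Of 7 mesenchymal markers 3 were tested, 1 rose and 1 fell, with sums of 8.47 to 9.06 CPM in overexpression and 7.14 to 8.73 CPM in vector. Of 6 B-cell markers 3 were tested, 1 rose and 1 fell (28.9 to 37.0 CPM in overexpression and 41.8 to 60.1 CPM in vector), and of 6 natural killer markers 2 were tested and 1 rose (4.21 to 4.71 CPM in overexpression and 3.05 to 6.33 CPM in vector). In bulk libraries a difference in the number of cells that express a gene and one in RNA per cell cannot be told apart, and the part of these markers in the results was not tested.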

How the data were processed

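Total RNA was made into libraries with a TruSeq kit, per the labels' protocols; the sources used here give neither strand nor annotation. The tools named in the submitters' processing notes are fastp (0.23.2), STAR (2.7.10a), StringTie and DESeq2, with the build hg38. The authors deposited a table of whole-number estimated counts (expected counts) per gene symbol, 1 column per library; in such estimates a count need not equal a read.

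Counts were rounded, filtered by filterByExpr, scaled by TMM and tested with edgeR 4.0.16 (R 4.3.3; quasi-likelihood), with group as the only term and Benjamini-Hochberg adjustment over all 21055 genes tested; the threshold was 0.05. SE is the fold change divided by the square root of F. The fit was tested on simulated data, with changes placed in well-expressed genes only. That test does not cover members near the floor. Positions and transcript lengths came from GENCODE 29, which held 37721 of the 59248 symbols. Alternatives used DESeq2 1.42.0 and limma 3.58.1 (voom), other scalings and filters, values divided by 4, a replicate block and each library left out. Depth ran from 59911578 to 84220970 estimated counts; the floor covers counting error only.

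The members and all lists were chosen with earlier results of these data known. The text names CALB1 and CALB2, every S100 and annexin gene, and from each other list the 3 risen and 3 fallen called genes with the smallest adjusted p, or the 2 of highest mean where none was called; other named genes were chosen after their values were seen. Values in every library are given for called members and for the 3 S100 and 3 annexin genes of highest mean. Figures used matplotlib 3.10.9. The neighbours of S100A11 are not reported here.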

Additional observations from a re-analysis of the deposited data

How the results depend on the processing

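Of 243 fits under the alternatives of single members that passed the main filter, 234 kept the side of the threshold (or, for CALB1 and CALB2, moved by less than the spread), 7 lost a call, all for ANXA6, and 2 gained a call, S100Z and ANXA2, both without vector replicate 2. The 234 include 12 fits of S100A11 and 14 of CALB2, which passed the main filter through the overexpression libraries alone. Nothing is read from those fits. S100B, not tested in the main fit, entered 4 fits with a library left out, through the vector libraries alone. Nothing is read from its calls there, which are part of the S100 numbers below. S100P, also not tested in the main fit, was called in none of 2 (edgeR adjusted p = 0.87 and 0.95). No called member changed direction. Called S100 genes numbered 2 in the main fit, 1 under the stricter filter and 1 with values divided by 4, where S100A11 was not tested, and 2 to 4 with a library left out; called annexins ranged from 4 to 6 with a library left out. The summed annexin level of overexpression was 633 CPM by TMM and 656 CPM as a share of the raw column total, and that of vector 511 and 494 CPM.

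Over all genes, 9705 were called, 8690 with the replicate block and 7916 to 10868 with a library left out; without a filter 8684 of 40234 were called. Same-numbered libraries deviated together by r = 0.0047 to 0.021, and 2 of 3 overexpression libraries correlated best with their own number, so the numbers were not treated as pairs. S100 genes near the floor, and CALB2 and S100A11 in vector, are limited by depth.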
